A study of Mus musculus with 2 samples.

Results

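The potassium channel genes of the mouse were described in the midbrain of E12.5 embryos. They were the measured genes whose identifier belongs, in GENCODE M21, to a protein-coding gene with a symbol of the Kcn series. With 1 such gene left out, the members were 91 of 43346 measured genes. By symbol, 40 were voltage-gated channel genes, 14 inward rectifiers, 14 two-pore channels, 8 channels of the calcium-activated families and 15 auxiliary subunits, in 15 families in all. The tissue came from healthy B6NCrl embryos of mixed sex at 12.5 days, with no treatment named in the labels, and was sequenced in 2 libraries that form 1 group. Replicate 1 came from a pool of 120 embryos and replicate 2 from a separate pool of 88 embryos, each with 10 ng of total RNA longer than 200 nt. A pool gives 1 value per gene over all its embryos and cell types, so fewer cells of a type and less RNA per cell cannot be told apart.

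Potassium channels let potassium ions leave the cell along their gradient, which holds the resting potential and ends each action potential. The pore is lined by subunits that carry a short filter loop, or a pair of such loops, with a glycine-tyrosine-glycine signature or a close variant of it. Voltage-gated channels open on depolarisation, inward rectifiers and two-pore channels set the resting potential, and calcium-activated channels couple calcium entry to repolarisation. Auxiliary subunits have no pore of their own and change the gating or the delivery of the others.

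The filter stretch of the coding sequence is shown for channels of each pore-forming class, because it is what the 76 pore-forming members share and the 15 auxiliary members lack. The longest coding sequence of each gene in GENCODE M21 was searched for a pattern of 5 codons, on the coding strand: threonine or serine, any residue, glycine, then tyrosine, phenylalanine or leucine, then glycine. In the lines below, capitals mark the 15 bases of the pattern and lower case the bases around it. A match is a description of these letters and not a tested site.
Kcnk10, first match: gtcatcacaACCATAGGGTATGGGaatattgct
Kcnk10, second match: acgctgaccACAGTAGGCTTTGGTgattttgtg
Kcna3: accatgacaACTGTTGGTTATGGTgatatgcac
Kcnh2: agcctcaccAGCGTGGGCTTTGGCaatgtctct
Kcnf1: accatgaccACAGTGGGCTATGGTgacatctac
Kcnn1: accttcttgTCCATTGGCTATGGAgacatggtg
Kcnj9: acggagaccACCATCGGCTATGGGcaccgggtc

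These lie, on mm10, in the coding exons of Kcnk10 on the minus strand of chromosome 12 (chr12:98490049-98496208 across an intron, and chr12:98440596-98440628), Kcna3 on the plus strand (chr3:107037602-107037634), Kcnh2 on the minus strand (chr5:24325546-24325578), Kcnf1 on the minus strand (chr12:17175052-17175084), Kcnn1 on the minus strand (chr8:70850648-70850680) and Kcnj9 on the minus strand (chr1:172326175-172326207). All 14 two-pore genes held the pattern 2 times, as the name of the class says, and all 14 inward rectifier and all 8 calcium-activated genes held it once. Among the voltage-gated genes, 38 of 40 held it once, while Kcnh2 and Kcna6 held it 2 times. For Kcnh2, the match printed is the later of its 2 matches. None of the 15 auxiliary genes held it, so that 83.5% of the 91 members held the pattern, against 5.09% of 21492 other nuclear protein-coding genes with a coding sequence in GENCODE M21, measured here or not. Over the 7 stretches printed, 7 of the 15 bases in capitals were the same in all, at positions 5, 7, 8, 10, 12, 13 and 14 counted from the first capital. Positions 7, 8, 13 and 14 belong to the glycine codons that the pattern asks for, so their bases were fixed by the search. Position 10 starts the codon that the pattern limits to tyrosine, phenylalanine or leucine, so the search limited it too. The 7 stretches held only tyrosine and phenylalanine there, whose codons all start with T. Kcnf1, which encodes a subunit that forms no working channel by itself, held the pattern too.

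The total was 29430493 estimated counts for replicate 1 and 37381984 for replicate 2. Of the counts on genes, the 91 members took 15193 in replicate 1 and 18654 in replicate 2, or 0.0539% in replicate 1 and 0.0517% in replicate 2. Levels are given as TPM, an abundance that divides counts by transcript length and scales each library to the same total. Markers of young neurons were present at medians of 169.4 TPM in replicate 1 and 161.9 TPM in replicate 2 (10 genes), and those of progenitors at 202.2 TPM in replicate 1 and 199.2 in replicate 2 (8 genes). Markers of mesenchyme (5 genes), blood vessels (7 genes), microglia (6 genes) and red cells (6 genes) were all at 1 TPM or more in both libraries.

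Most potassium channel genes were low. At 1 TPM or more in both libraries, 43 of 91 members (47.3%) were detected, against 60.5% of 21461 nuclear protein-coding genes. A further 7 members reached 1 TPM in 1 library, and 41 were below it in both. The median member was at 1.03 TPM in replicate 1 and 1.02 in replicate 2, against protein-coding medians of 4.75 TPM in replicate 1 and 5.07 in replicate 2. Mean levels of 10 TPM or more were reached by 7 members (7.69%), against 42.3% of protein-coding genes. All members together summed to 257.9 TPM in replicate 1 and 257.0 TPM in replicate 2, which was 0.0331% in replicate 1 and 0.0321% in replicate 2 of protein-coding TPM. A few genes carried most of this sum, with 55.6% in replicate 1 and 55.9% in replicate 2 in the 10 highest members.

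**Figure D1:**
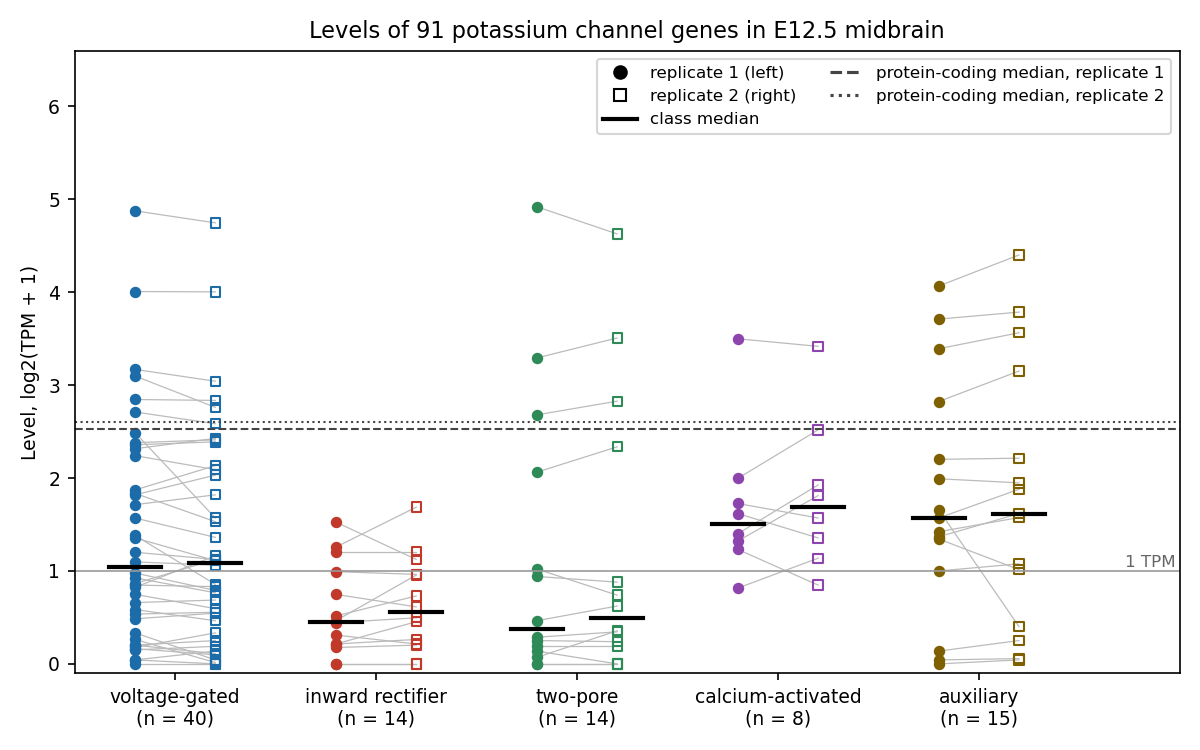
Level of each of the 91 members as log2(TPM + 1), with replicate 1 (filled circles, left) joined to replicate 2 (open squares, right) within each class, class medians as bars and protein-coding medians as dashed and dotted lines. Every class median lies under the protein-coding medians, and the inward rectifiers hold no point above 2 on this axis.

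The classes differed in how many of their genes were on. The calcium-activated families had 6 of 8 genes at 1 TPM in both libraries (75%), and the other 2 reached it in 1 library each. The auxiliary subunits had 11 of 15 (73.3%), the voltage-gated channels 19 of 40 (47.5%), the two-pore channels 4 of 14 (28.6%) and the inward rectifiers 3 of 14 (21.4%). Within the voltage-gated class, the silent modifier families, whose products join other subunits and make no channel alone, had 2 of 10, and the remaining families 17 of 30 (56.7%). In summed level the order was another one. Voltage-gated genes summed to 117.1 TPM in replicate 1 and 107.9 in replicate 2, auxiliary genes to 60.08 and 67.60, two-pore genes to 49.71 and 47.18, calcium-activated genes to 22.93 and 25.26, and inward rectifiers to 8.11 TPM in replicate 1 and 9.08 in replicate 2. The two-pore class was thus low in its median gene, at 0.30 TPM in replicate 1 and 0.41 in replicate 2, and high in its sum, since 1 gene held most of it.

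Set against one another by the median of log2(TPM + 1), voltage-gated genes stood 0.558 ± 0.036 above inward rectifiers (SD over 2 libraries; 0.584 in replicate 1 and 0.533 in replicate 2) and 0.630 ± 0.046 above two-pore genes (0.662 and 0.598). They stood below the calcium-activated genes, with a difference of -0.538 ± 0.093 (-0.471 and -0.604). Without the silent modifiers this last difference was -0.23 ± 0.28 (-0.032 in replicate 1 and -0.428 in replicate 2). Genes of a class are not replicates, so these differences have no test. Among members at a mean of 1 TPM or more, the sign turned for the two-pore genes, at -1.02, of which 4 were left, and for the calcium-activated genes, at 0.344, of which 7 were left. For the inward rectifiers, 3 genes were left and the difference was 0.827.

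**Figure D2:**
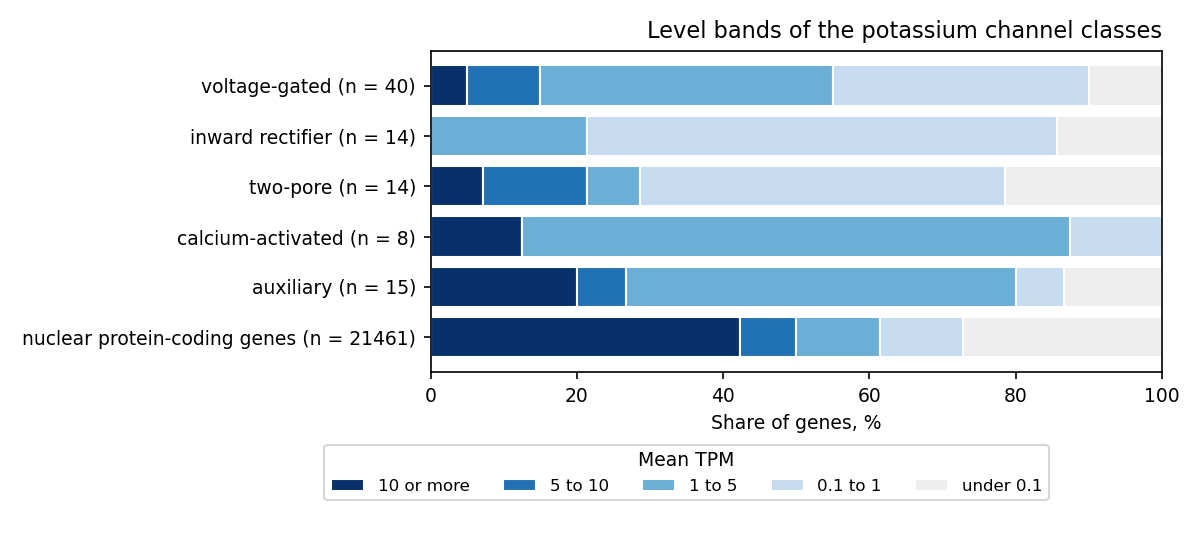
Share of genes (%) in 5 bands of mean TPM for each class, with the number of genes in brackets and all nuclear protein-coding genes at the bottom. No inward rectifier among the members reaches 5 TPM, and 42.3% of protein-coding genes but 5% of voltage-gated genes lie at 10 TPM or more.

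Among voltage-gated genes, the Kv7 family, in which subunits of the slow M-current are found, had members near the threshold. Kcnq3, an M-channel subunit, was at 0.97 TPM in replicate 1 and 0.73 in replicate 2, below 1 TPM in both libraries. Kcnq5, another one, stood just at the threshold with 0.82 TPM in replicate 1 and 1.18 in replicate 2. Kcnq1, the cardiac and epithelial member, was listed at 1.61 TPM in replicate 1 and 0.81 in replicate 2 from 39 counts in replicate 1 and 44 in replicate 2. Its value is uncertain, since 57.5% of its level in replicate 1 was given to a transcript of 282 bases, and its exons overlap the antisense RNA gene Kcnq1ot1. The intervals deposited beside the TPM hold the posterior mean TPM of all 48 members at a mean of 1 TPM or more, but not the TPM of 3 of them (6.25%), against 8.14% of 13202 protein-coding genes at that level. These were Kcnq1 and the auxiliary gene Kcnip2 in both libraries and the auxiliary gene Kcnab2 in replicate 1, where Kcnq1 had an interval of 1.68 to 5.79 TPM and Kcnab2 one of 16.14 to 20.11 TPM.

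Kcnh2, the ERG channel known for cardiac repolarisation, was at 15.09 TPM in replicate 1 and 15.05 in replicate 2. Kcnh4, an ELK-type channel, was at 5.55 TPM in replicate 1 and 5.00 in replicate 2. Kcnh8, of the same type, was at 2.66 TPM in replicate 1 and 3.39 in replicate 2. Kcnh7, another ERG channel, was at 2.28 TPM in replicate 1 and 2.53 in replicate 2. The other 4 genes of the family, Kcnh1, Kcnh5, Kcnh6 and Kcnh3, were under 1 TPM in both libraries, with means between 0.125 and 0.79 TPM.

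The Kv1 genes, homologues of the fly Shaker channel, were uneven. Kcna3, the Kv1.3 channel known from T lymphocytes, was at 8 TPM in replicate 1 and 7.24 in replicate 2. Kcna6, the Kv1.6 channel, was at 6.19 TPM in replicate 1 and 6.14 in replicate 2, nearly the same in both. Kcna4, which gives a fast inactivating current, was at 3.98 TPM in replicate 1 and 4.38 in replicate 2. Kcna1, an axonal channel of mature neurons, was at 1.30 TPM in replicate 1 and 1.18 in replicate 2. Kcna2, which joins Kcna1 in mature axons, was at 0.15 TPM in replicate 1 and 0.08 in replicate 2, with 9 and 6 counts. Kcna3 lies on chromosome 3 (chr3:107036169-107038070) beside Kcna2 (chr3:107101146-107115005) and Kcna10 (chr3:107183056-107195721), and Kcna10 had 1 count in replicate 1 and 0 in replicate 2. The group on chromosome 6 was different, with Kcna1, Kcna5 and Kcna6 all above 1 TPM in both libraries. Kcna7 had 0 counts in both, and 3 counts would have been 0.0499 TPM in replicate 1 and 0.0394 TPM in replicate 2.

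The Kv3 and Kv4 families, known for fast currents, were uneven. Kcnc1, the Kv3.1 channel of fast-spiking neurons, was at 7.57 TPM in replicate 1 and 5.78 in replicate 2. Its relative Kcnc2 had a mean of 1.36 TPM, and Kcnc4 stayed under 1 TPM in both libraries. Kcnd2, a Kv4 channel of the somatodendritic A-type current, was at 4.21 TPM in replicate 1 and 4.32 in replicate 2. Kcnd3, of the same family, was at 4.13 TPM in replicate 1 and 4.24 in replicate 2, so the pair differed by less within a library than Kcnd2 did between the libraries. Their X-linked relative Kcnd1 was at 0.77 TPM in replicate 1 and 1.24 in replicate 2. Of the Kv2 delayed rectifiers, Kcnb2 was at 3.73 TPM in replicate 1 and 3.26 in replicate 2. Of the silent modifiers, Kcng1 was at 2.57 TPM in replicate 1 and 1.89 in replicate 2. Kcnf1 was at 1.14 TPM in replicate 1 and 1.09 in replicate 2. The other 8 of these 10 genes, Kcng2, Kcng3, Kcng4, Kcns1, Kcns2, Kcns3, Kcnv1 and Kcnv2, had means between 0.065 and 0.595 TPM.

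**Figure D3:**
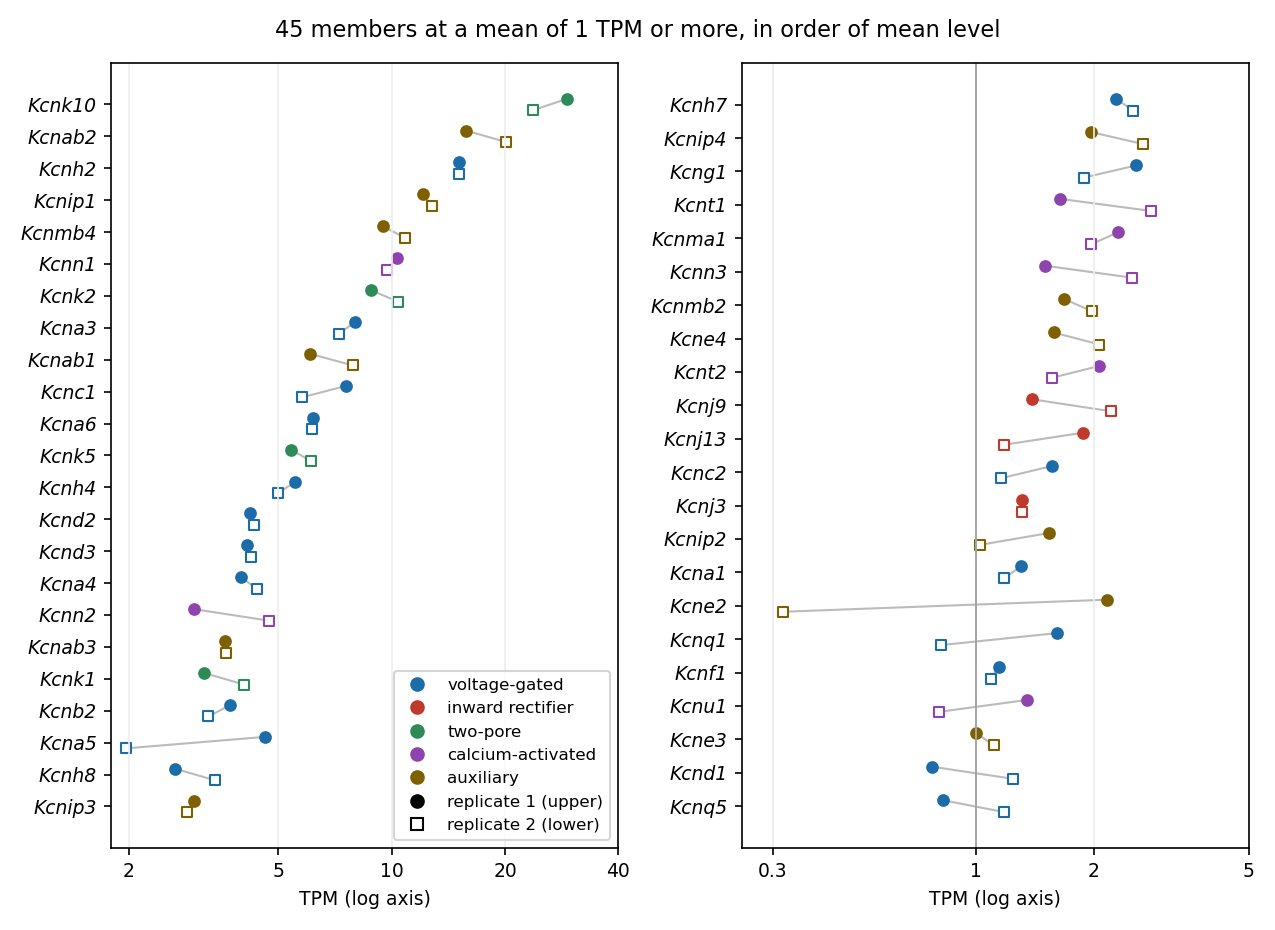
TPM (log axis) of 45 members with a mean of 1 TPM or more, in order of mean level down the left panel and then the right, coloured by class, with replicate 1 as the upper filled circle and replicate 2 as the lower open square. Kcnk10 stands highest among those drawn, and the widest gaps between the libraries are those of Kcne2 and Kcna5.

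Two-pore channels carry the background leak of potassium. Kcnk10 (ENSMUSG00000033854.9), the TREK-2 channel opened by stretch, heat and fatty acids, was at 29.29 TPM in replicate 1 and 23.73 in replicate 2. It lies on chromosome 12 (chr12:98429437-98578310, minus strand) and had 1 annotated transcript. Kcnk2, the related TREK-1 channel, was at 8.80 TPM in replicate 1 and 10.38 in replicate 2. Kcnk4, the third mechanically gated relative, was at 0.14 TPM in both.

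Kcnk5, an acid-sensitive channel of the TASK and TALK type, was at 5.41 TPM in replicate 1 and 6.10 in replicate 2. Kcnk1, the TWIK-1 channel, was at 3.18 TPM in replicate 1 and 4.05 in replicate 2. The acid-sensitive TASK channels, well known from mature neurons, were lower. Of them, Kcnk9 was at 0.92 TPM in replicate 1 and 0.84 in replicate 2. Kcnk3 was at 1.03 TPM in replicate 1 and 0.67 in replicate 2, on either side of the threshold. The 8 lowest two-pore genes had means under 0.5 TPM and were Kcnk6, Kcnk12, Kcnk13, Kcnk7, Kcnk4, Kcnk15, Kcnk16 and Kcnk18. Kcnk16 had 0 counts in both libraries, where 3 counts would have been 0.217 TPM in replicate 1 and 0.172 in replicate 2. Kcnk18 had 0 counts as well, where 3 counts would have been 0.0577 TPM in replicate 1 and 0.0457 in replicate 2.

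All 3 SK genes, whose channels sense calcium through calmodulin and give the afterhyperpolarisation, were above 1 TPM in both libraries. Kcnn1 (ENSMUSG00000002908.11) led the class at 10.31 TPM in replicate 1 and 9.69 in replicate 2. Kcnn2 was at 2.99 TPM in replicate 1 and 4.73 in replicate 2. Kcnn3 was at 1.5 TPM in replicate 1 and 2.51 in replicate 2, and both of these genes had the lower value in replicate 1. Kcnn4, the intermediate-conductance channel known from blood and epithelial cells, was just under the threshold in its mean, at 0.76 TPM in replicate 1 and 1.20 in replicate 2. Of the Slo family, the large-conductance channel Kcnma1 was at 2.31 TPM in replicate 1 and 1.97 in replicate 2. Kcnt1, a sodium-activated channel of the same family, was at 1.64 TPM in replicate 1 and 2.80 in replicate 2. Its relative Kcnt2 had the higher value in replicate 1, at 2.07 TPM in replicate 1 and 1.56 in replicate 2. Kcnu1, known from sperm, was at 1.35 TPM in replicate 1 and 0.80 in replicate 2 from 24 counts in each library. SK and IK genes summed to 15.56 TPM in replicate 1 and 18.13 in replicate 2 and Slo genes to 7.37 TPM in replicate 1 and 7.13 in replicate 2, with a ratio of 2.11 in replicate 1 and 2.54 in replicate 2.

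Inward rectifiers, which pass potassium near the resting potential, were low as a class. The highest among the members was Kcnj9 (ENSMUSG00000038026.8), a subunit of the G protein-gated channels, at 1.39 TPM in replicate 1 and 2.22 in replicate 2. Its partner subunit Kcnj3 was at 1.31 TPM in both libraries. The other G protein-gated subunits were under the threshold, with Kcnj6 at 0.43 TPM in replicate 1 and 0.66 in replicate 2. Kcnj5 was at 0.24 TPM in replicate 1 and 0.16 in replicate 2. Kcnj13, known from the choroid plexus and the retinal pigment epithelium, was at 1.88 TPM in replicate 1 and 1.18 in replicate 2 from 39 counts in replicate 1 and 29 in replicate 2, and its exons overlap the protein-coding gene Gigyf2 on the other strand.

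Of the strong rectifiers, Kcnj2 was just under the threshold at 0.99 TPM in replicate 1 and 0.95 in replicate 2. Kcnj14 was at 0.38 TPM in replicate 1 and 0.94 in replicate 2, from 17 counts in replicate 1 and 54 in replicate 2. Kcnj12 had a mean of 0.385 TPM, and Kcnj4 had 0 counts in both libraries, where 3 counts would have been 0.0826 TPM in replicate 1 and 0.0654 in replicate 2. Kcnj10, the rectifier of mature glia, was at 0.68 TPM in replicate 1 and 0.53 in replicate 2. In the same libraries the astrocyte marker Gfap was at 0.05 TPM in replicate 1 and 0.02 in replicate 2. Kcnj11, the pore of an ATP-sensitive channel, was at 0.16 TPM in replicate 1 and 0.37 in replicate 2, from 3 counts in replicate 1 and 9 in replicate 2. Its sulfonylurea receptor partner Abcc8 was at 0.38 TPM in replicate 1 and 0.51 in replicate 2. Both values lie inside the deposited intervals of Kcnj11, 0.036 to 0.404 TPM in replicate 1 and 0.179 to 0.665 in replicate 2. Abcc9, the other receptor gene listed, was at 2.11 TPM in replicate 1 and 2.42 in replicate 2. The other rectifiers among the members were Kcnj16 and Kcnj15, with means of 0.18 and 0.14 TPM, and the kidney channel Kcnj1. Kcnj1 had 0 counts in both libraries, where 3 counts would have been 0.057 TPM in replicate 1 and 0.0451 in replicate 2.

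Several auxiliary subunits stood among the highest members. Kcnab2, a beta subunit of Kv1 channels, was at 15.76 TPM in replicate 1, under its deposited interval there, and 20.14 in replicate 2. Kcnab1 was at 6.08 TPM in replicate 1 and 7.89 in replicate 2, and Kcnab3 at 3.6 TPM in replicate 1 and 3.64 in replicate 2. All 4 KChIP genes, calcium-binding partners of Kv4 channels, were above 1 TPM in both libraries, led by Kcnip1 at 12.10 TPM in replicate 1 and 12.80 in replicate 2. The others, Kcnip3, Kcnip4 and Kcnip2, had means between 1.28 and 2.92 TPM. Kcnmb4, the neuronal beta subunit of the large-conductance channel, was at 9.50 TPM in replicate 1 and 10.83 in replicate 2. Of the other beta subunits of that channel, Kcnmb2 had a mean of 1.83 TPM, and Kcnmb3 and Kcnmb1 had means of 0.145 and 0.035 TPM. The MinK-related genes were lower, with means of 1.83, 1.24 and 1.06 TPM for Kcne4, Kcne2 and Kcne3. Kcne1, the cardiac partner of Kcnq1, had 0 counts in replicate 1 and 2 in replicate 2.

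Summed over families, KChIP genes were at 18.59 TPM in replicate 1 and 19.36 in replicate 2, against 9.11 TPM in replicate 1 and 9.80 in replicate 2 for Kv4 genes, a ratio of 2.01 ± 0.046 (SD, n = 2). Kv beta genes were at 25.44 TPM in replicate 1 and 31.67 in replicate 2, against 24.27 TPM in replicate 1 and 20.99 in replicate 2 for Kv1 genes. The beta subunits of the large-conductance channel were at 11.31 TPM in replicate 1 and 13.04 in replicate 2, against 2.31 TPM in replicate 1 and 1.97 in replicate 2 for Kcnma1 itself, a ratio of 4.90 in replicate 1 and 6.62 in replicate 2. TPM counts transcripts per length, and no protein was measured.

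**Figure D4:**
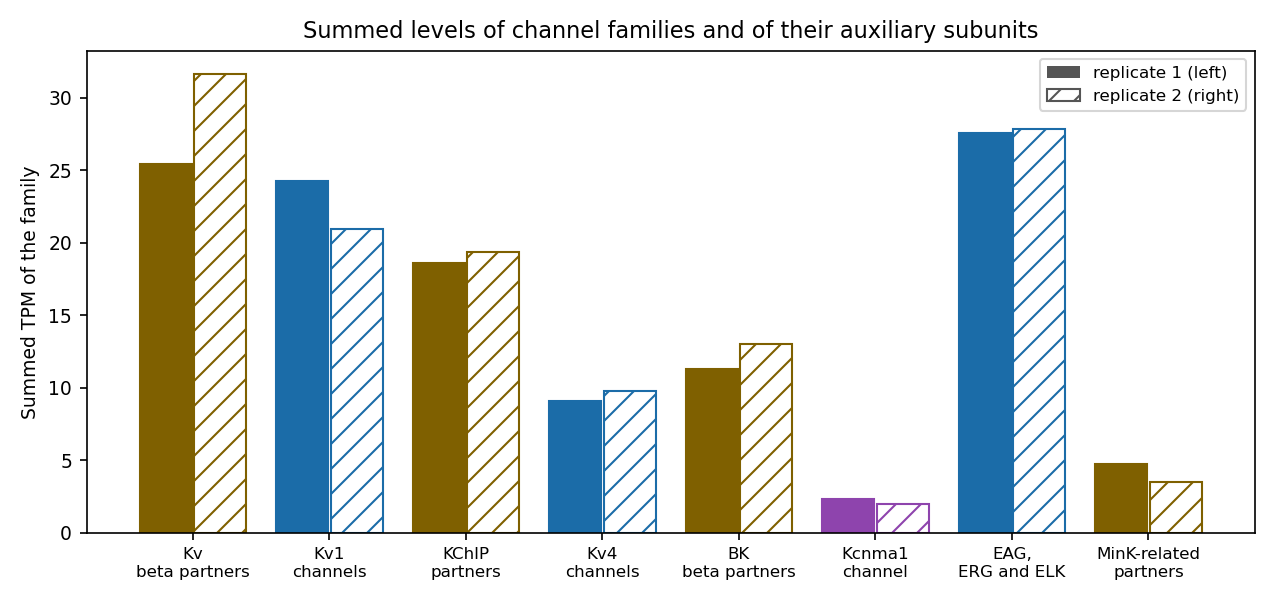
Summed TPM of auxiliary families beside the channel families they join, and of 2 further families, with replicate 1 as the left bar and replicate 2 as the right, hatched bar. KChIP and the beta subunits of the large-conductance channel stand above their channels in both libraries, while the Kv beta sum lies near the Kv1 sum in replicate 1 and above it in replicate 2.

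Some other genes of potassium handling stood higher than Kcnk10 and Kcnh2, among them a pump gene. Of 13 further partner subunits listed, 7 were at 1 TPM or more in both libraries, led by Cntnap2, an adhesion protein that clusters Kv1 channels in axons, at 40.80 TPM in replicate 1 and 32.92 in replicate 2. Dpp6, a partner of Kv4 channels, was at 18.58 TPM in replicate 1 and 16.77 in replicate 2. Adam22, a receptor that binds the secreted protein Lgi1, was at 17.48 TPM in replicate 1 and 16.80 in replicate 2. The 3 organelle potassium channels Tmem175, Tmem38b and Tmem38a lay between 8.08 and 14.29 TPM. Of 7 sodium-potassium pump genes, whose pump builds the potassium gradient, 6 were detected. The pump subunit gene Atp1b3 led at 127.22 TPM in replicate 1 and 136.09 in replicate 2. Of 7 Slc12a transporter genes listed, 5 were detected. Slc12a7 led at 28.45 TPM in replicate 1 and 28.71 in replicate 2. Slc12a4 was at 9.16 TPM in replicate 1 and 10.45 in replicate 2. By the test between the pools described next, 1 gene of these 4 lists was called, Lrrc55, a partner of the large-conductance channel, at 1.61 TPM in replicate 1 and 0.99 in replicate 2 (log2 ratio 0.73, adjusted p = 0.019, exact binomial test).

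The pools themselves were compared gene by gene, replicate 1 over replicate 2, by a two-sided exact binomial test of the counts scaled by TMM library sizes, with Benjamini-Hochberg adjustment over 18939 genes tested. The test compares these 2 libraries, not conditions, and covers counting error only. Of 48 members tested at a mean of 1 TPM or more, 4 were called at an adjusted p under 0.05 and a ratio of at least 1.5-fold, against 524 of 15199 genes (3.45%). Of these, 2 were higher in replicate 1, where 1.33% of all genes were, and 2 were lower, where 2.12% of all genes were. At any ratio and level, 14 of 79 members tested had an adjusted p under 0.05, against 4253 of all 18939 genes tested (22.5%). The median log2 ratio of the 48 members was 0.10, with 25 above 0 and 23 below, beside -0.004 over all genes at that level. Computed from the deposited TPM, it was -0.008.

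Kcne2, a small subunit of epithelial and cardiac channels that is known from the choroid plexus, had 61 counts in replicate 1 and 11 in replicate 2, or 2.16 TPM in replicate 1 and 0.32 in replicate 2. Its log2 ratio was 2.78 (95% exact interval 1.90 to 3.91, adjusted p = 5.92e-11). All of its level was given to 1 transcript of 1690 bases in replicate 1 and to another of 1632 bases in replicate 2. Of 5 choroid plexus markers, 4 were at 1 TPM in both libraries and none was at 0, and they summed to 52.18 TPM in replicate 1 and 31.87 TPM in replicate 2. Ttr was at 38.70 TPM in replicate 1 and 13.79 in replicate 2 and Clic6 at 3.72 TPM in replicate 1 and 1.28 in replicate 2, both called higher in replicate 1. Aqp1, at 4.00 TPM in replicate 1 and 6.52 in replicate 2, was called lower, and Folr1, at 5.39 TPM in replicate 1 and 9.76 in replicate 2, and Kl, at 0.37 TPM in replicate 1 and 0.52 in replicate 2, were not called. Kcnj13, the other member known from this tissue, had a log2 ratio of 0.79 (0.06 to 1.54, adjusted p = 0.115) and was not called. The part of choroid plexus tissue in these results was not tested.

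Kcna5, the Kv1.5 channel known from the atrium and from smooth muscle, had 224 counts in replicate 1 and 121 in replicate 2, or 4.62 TPM in replicate 1 and 1.97 in replicate 2. Its log2 ratio was 1.25 (0.93 to 1.58, adjusted p = 1.87e-13, exact binomial test). It has 1 coding exon and 1 annotated transcript on chromosome 6 (chr6:126532551-126535412), and its neighbours Kcna1 and Kcna6 had log2 ratios of 0.17 and 0.18 and were not called. Kcnn3 was lower in replicate 1, with 84 counts against 170 in replicate 2 and a log2 ratio of -0.65 (-1.05 to -0.27, adjusted p = 0.00503, exact binomial test). Kcnj9 was lower in replicate 1 as well, with 82 counts against 163 in replicate 2 and a log2 ratio of -0.62 (-1.03 to -0.24, adjusted p = 0.00897, exact binomial test), and its exons overlap an annotated antisense gene. With edgeR's negative binomial exact test, which also allows for spread beyond counting, Kcne2 and Kcna5 were called and Kcnn3 and Kcnj9 were not. That spread was 1 value for all genes, estimated from these same 2 libraries. It was therefore not measured apart from the difference tested.

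The leading members differed by less than 1.5-fold between the pools. Kcnk10 had a log2 ratio of 0.33 (0.22 to 0.44, adjusted p = 2.22e-07, exact binomial test). Kcnh2 and Kcnn1 had 0.12 and 0.12, with intervals that include 0. The median log2 ratio was 0.17 for voltage-gated genes (22 genes), 0.12 for calcium-activated genes (7 genes), -0.10 for auxiliary genes (12 genes), -0.18 for two-pore genes (4 genes) and -0.21 for inward rectifiers (3 genes). In the same libraries, marker genes were counted as lower or higher by the log2 ratio of the scaled counts. This ratio was below 0 in 7756 of 15199 genes at a mean of 1 TPM or more. Mesenchyme markers were lower in replicate 1 in 5 of 5 genes, with sums of 1069 TPM in replicate 1 and 1517 TPM in replicate 2. Microglia markers were lower in 6 of 6 genes, with sums of 75.89 TPM in replicate 1 and 90.60 in replicate 2. By TPM, Aif1 among them was higher in replicate 1, at 6.63 TPM against 6.43 in replicate 2. Red cell markers were lower in 6 of 6 genes, with sums of 8171 TPM in replicate 1 and 9244 in replicate 2, and markers of blood vessels in 6 of 7, with sums of 100.2 TPM in replicate 1 and 113.1 in replicate 2. No gene of these 4 lists was called, since none reached a 1.5-fold ratio. Col1a1, a mesenchyme marker, came nearest with a log2 ratio of -0.494. For the mesenchyme genes this ratio alone was missing for a call. Neuron markers were higher in replicate 1 in 7 of 10 genes, summing to 2429 TPM in replicate 1 and 2349 in replicate 2. None was called, as none reached 1.5-fold. Of 6 muscle and skin markers none was called either. Of 7 oligodendrocyte and astrocyte markers 1 was called, higher in replicate 1, with a log2 ratio of 0.92 (adjusted p = 3.26e-14, exact binomial test). Another of these, at a mean of 0.675 TPM, had a log2 ratio of -1.25. Of the 4 at a mean of 1 TPM or more, 3 had a ratio above 0 and 1 below. The part of these cells in the members' ratios was not tested.

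**Figure D5:**
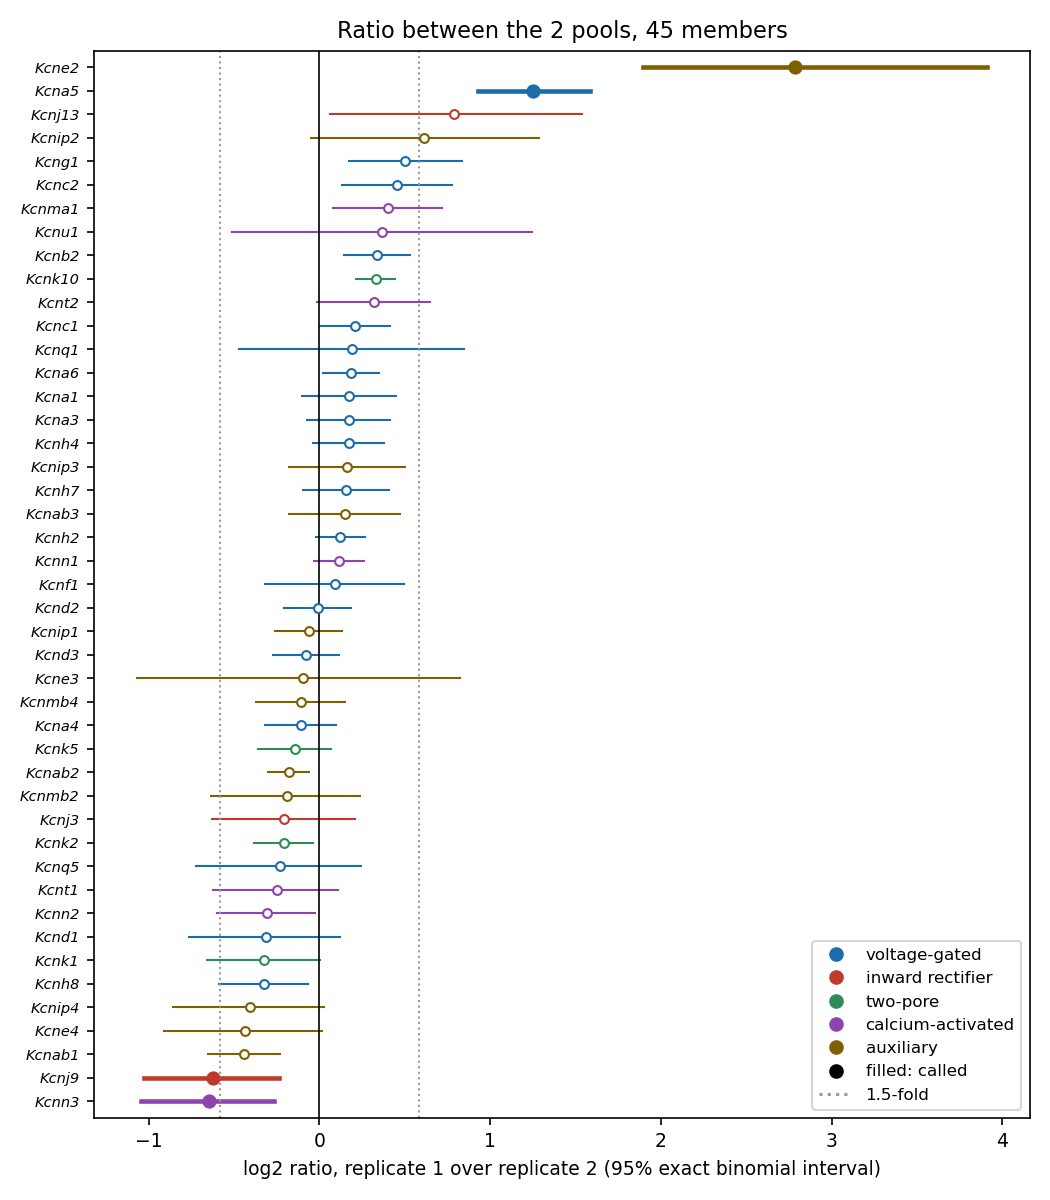
Log2 ratio of replicate 1 over replicate 2 for 45 members with a mean of 1 TPM or more, with 95% exact binomial intervals, coloured by class, with called genes filled and dotted lines at 1.5-fold. Kcne2 and Kcna5 stand apart on the right, Kcnj9 and Kcnn3 are the called genes on the left, and most other members lie within 1.5-fold.

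The transcripts in use were read from the deposited isoform percent, the share of a gene's level given to each annotated transcript. Among members at a mean of 1 TPM or more with several transcripts, 31 of 39 (79.5%) had the same top transcript in both libraries, against 90.7% of 9670 protein-coding genes. At a mean of 5 TPM or more it was the same in 11 of 11, against 93% of 8008 protein-coding genes. The 8 members in which it differed were Kcnn2, Kcnh7, Kcnip4, Kcnt1, Kcne2, Kcnq1, Kcne3 and Kcnq5, all with means under 5 TPM. In Kcnn2 the coding transcript that led in replicate 1 took 57.6% there and 21.1% in replicate 2, where a retained-intron transcript led with 40.4%. In Kcnt1, retained-intron transcripts took 46.3% in replicate 1 and 68.5% in replicate 2. Whether the libraries were primed from poly(A) tails is not settled by the labels, so what such shares say of spliced and unspliced RNA is limited.

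The leading transcripts of the highest auxiliary genes were coding ones. That of Kcnab2 took 65.0% in replicate 1 and 65.5% in replicate 2, that of Kcnip1 71.7% in replicate 1 and 75.2% in replicate 2, and that of Kcnmb4 74.7% in replicate 1 and 76.5% in replicate 2. In Kcnh2 the leading coding transcript took 58.0% in replicate 1 and 49.8% in replicate 2, and in Kcnn1 it took 100% in both. In some genes the leading transcript was not a coding one. In Kcnc1 a processed transcript of 531 bases led with 55.8% in replicate 1 and 49.3% in replicate 2, and in Kcna6 a transcript annotated as subject to nonsense-mediated decay led with 87.3% in replicate 1 and 73.6% in replicate 2, with 0% in replicate 1 and 0.489% in replicate 2 on its coding transcripts. Of 48 members at 1 TPM or more, 3 (6.25%) had under 50% of their level on coding transcripts, against 8.70% of 13202 protein-coding genes.

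The members also differed in gene structure, which the choice by symbol did not use. A single coding exon was found in 8 of 14 inward rectifiers, 10 of 40 voltage-gated genes and 4 of 15 auxiliary genes. It was found in 0 of 14 two-pore and 0 of 8 calcium-activated genes. At a mean of 1 TPM or more, the share was 18.8% of members and 7.04% of protein-coding genes. Exons were those of the coding transcript with the highest mean level. This can be a short one, as in Kcnj16, with 309 coding bases against 1257 in its longest coding sequence. Members at 1 TPM or more spanned a median of 55.3 kb, against 25.1 kb for protein-coding genes at that level. Exons of 28 members overlapped those of another annotated gene, in 26 of them one on the opposite strand, among them Kcnk2, Kcnk1, Kcnab1, Kcnd3, Kcna6, Kcnmb4 and Kcnn1. Whether the counting used strand is not given in the sources used here. Whether reads in the shared stretches were told apart is therefore not known. The overlaps are those of GENCODE M21, and whether the same genes were in the annotation used for counting was not tested.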

How the data were processed

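The authors deposited expected counts for genes and transcripts, fractional estimates in files with RSEM-type columns per the file headers. The authors also deposited TPM per effective length and a posterior mean TPM. The bounds of an interval that holds the posterior mean TPM, and not always the TPM, a signal column here, are the authors' too, per the file headers. The isoform percent per transcript was deposited beside them. The annotation was GENCODE M4 on mm10 per the deposited notes, with no aligner or counter named in the sources used here. The labels call the RNA total but point to the manual of a SMARTer Ultra Low kit, which primes from poly(A) tails, so whether RNA without such tails was measured is not settled.

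Symbols and positions are those of GENCODE M21 on mm10, where 42462 of 43346 gene identifiers matched. Rows outside genes, that is spike-ins and 26248 numbered features, held 4.14% and 3.48% of the counts and were left out. Several genes go unnamed here and are not drawn by name; all but 1 of the Kcn series, which was left out of the members, still enter the counts, medians and sums. The members and lists were chosen with earlier results of these data known.

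A gene was detected at 1 TPM or more in both libraries. Class levels were medians of log2(TPM + 1). Expected counts were rounded, scaled with TMM factors of 0.997 and 1.003 (edgeR 4.0.16, R 4.3.3), and compared between the libraries, with at least 10 counts summed, by a two-sided exact binomial test. Calls needed an adjusted p under 0.05 (Benjamini-Hochberg), a 1.5-fold ratio or more and 1 TPM in the mean. To both counts 0.5 was added before a log2 ratio. Intervals and the floor of 3 counts cover counting error only. Of the steps, only the comparison of the pools was tested on simulated data. The simulated counts had no spread beyond counting error, so that test does not cover such spread between real pools. Coding stretches were read from the GENCODE M21 transcripts of the same build. DESeq2 1.42.0 size factors and the other alternatives are given in the closing section. The software was Python 3.11.15, scipy 1.17.1, numpy 2.4.6, pandas 2.3.3 and matplotlib 3.10.9.

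Values in both libraries are given for the 8 highest voltage-gated members, the 5 highest of each other class, every called and every calcium-activated member, and the 2 members on each side of a mean of 1 TPM. Of the partner, pump and transporter lists the 3 highest genes are named, and isoforms are given for the 6 highest members with several transcripts, apart from the unnamed genes. Other members and genes with values, such as Kcnq3, Kcna2 and Abcc9, were chosen after their values were seen.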

Additional observations from a re-analysis of the deposited data

How the results depend on the processing

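No paired analysis was possible because there is 1 group. Members detected numbered 25 at 2 TPM, against 43 at 1 TPM, and 46 and 47 with 1 library alone. Why the values below moved was not tested. The difference of voltage-gated minus inward rectifier medians kept its sign, at 1.20 with a pseudocount of 0.1, 0.827 among members at a mean of 1 TPM or more, 0.443 with posterior mean TPM, 1.43 with TMM-scaled CPM and 0.866 without silent modifiers. Voltage-gated minus two-pore was 1.43 with that pseudocount, -1.02 among members at 1 TPM or more, where it turned, 1.57 with CPM and 0.937 without silent modifiers. Voltage-gated minus calcium-activated was -0.84, 0.344, where it turned, -0.659 with posterior mean TPM, -0.338 with CPM and -0.23 ± 0.28 without silent modifiers. Leaving out 1 library moved these differences within 0.533 to 0.584, 0.598 to 0.662 and -0.604 to -0.471. Called members numbered 7 at a mean of 0.1 TPM, where Kcnj14, Kcns3 and Kcng4 were added (795 of 18801 genes in all, 4.23%), and 2, Kcne2 and Kcna5, both with edgeR's negative binomial test (202 of 15199 genes, 1.33%) and at 2-fold (207, 1.36%). All 4 were left where calls also needed deposited intervals that do not overlap (289 genes, 1.9%), against 524 genes called otherwise (3.45%). The median log2 ratio of the members was -0.008 from deposited TPM, against 0.10 from counts, and at 5 TPM or more 11 of 11 members had the same top transcript. The other settings run for these results, 21 with those that leave out a library, kept the sign and stayed within 1.5 times the count or within the spread of the value reported, apart from 4 of them for the median log2 ratio, which has no spread over libraries and lay between 0.071 and 0.109. Depth limits the low members: Kcnu1 and Kcne3 rest on 18 to 25 counts per library.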
